A study of Mus musculus with 30 samples.

Results

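The Hox genes encode homeodomain transcription factors that lie in 4 clusters and mark position along the body axis. On these mouse arrays 34 Hox genes of 17097 measured genes were found by symbol, each represented by whichever of its own single-gene probe sets was brightest on average. By paralog number the 34 genes comprised 11 anterior genes (numbers 1 to 4), 9 central genes (5 to 8) and 14 posterior genes (9 to 13). By cluster, 9 lay in Hoxa on chromosome 6, 10 in Hoxb on chromosome 11, 6 in Hoxc on chromosome 15 and 9 in Hoxd on chromosome 2.

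In the embryo, genes at one end of each cluster, with low paralog numbers, are switched on early and up to the hindbrain, and genes at the other end, with high numbers, are switched on later and only in the trunk, tail and limbs. Adult cells keep much of this address: muscle, connective tissue and neurons of different body levels carry different sets of Hox transcripts, whereas the forebrain develops without Hox expression and the heart and liver arise mostly from tissue in which few Hox genes are active. Hox proteins bind DNA together with partners of the TALE class (Pbx, Meis and Pknox), retinoic acid and Cdx factors act upstream of the clusters, and Polycomb and Trithorax proteins keep them silent or active.

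The arrays came from testis, liver, muscle (skeletal muscle in the design text), brain and heart of mice labelled ClpP KO and of their wild-type littermates, all on the C57BL/6 genetic background. ClpP is the proteolytic subunit of a mitochondrial matrix protease. There were 3 arrays in each of 10 groups, 30 in all. The labels used here name no age, no brain region and no individual muscle, and replicates may or may not be separate animals, so that a p-value measures only the spread between these samples. Values are log2 expression from RMA, a method that background-corrects, normalizes and summarises the probes of each set. Levels of different genes come from different probes and are not comparable with each other, so each gene is compared with itself across arrays.

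Clpp read 2.93 to 3.99 on the 15 knockout arrays and 5.88 to 9.21 on the 15 wild-type arrays. Array medians lay between 3.24 and 3.38. The mean log2 level of 6 skeletal muscle markers was 12.8 to 12.9 on the muscle arrays, that of 6 hepatocyte markers 12.6 to 12.8 on the liver arrays, that of 5 cardiomyocyte markers 10.4 to 12.98 on the heart arrays, and that of 6 neuronal markers 10.1 to 10.2 on the brain arrays. Several arrays stood apart from their group. Testis wild-type replicate 3 carried epididymal transcripts: 5 epididymal markers averaged 10.3 there and 2.60 to 3.12 on the other 5 testis arrays. Muscle wild-type replicate 1 carried spermatid transcripts, with a mean of 5.31 over 10 markers against 2.69 to 2.85 on the other muscle arrays, and muscle wild-type replicate 2 was low in 6 slow-fibre genes (4.89 against 7.40 and 8.16 in the other wild-type arrays and 10.5 to 10.9 in the knockout arrays). Heart knockout replicates 2 and 3 averaged 12.88 and 12.98 over the cardiomyocyte markers, against 10.4 to 11.2 on the other 4 heart arrays. Over 4 adipocyte markers they averaged 7.17 and 7.83, against 4.76 to 4.97. The genes of these lists did not shift alike, as given with the genotype results. Brain wild-type replicate 3 differed from the other 5 brain arrays in its regional markers, as described with the brain results.

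Most Hox genes read near the bottom of the log2 scale on most arrays. A log2 level of 4, somewhat above the array medians, was reached on no array by 14 of the 34 genes and on at least 1 array by 20 genes, and a level of 6 by 11 genes. Muscle had the most, with 11 or 12 genes at 4 or above on each of its 6 arrays. Brain had 4 to 7 such genes on 5 arrays and 0 on wild-type replicate 3, testis had 3 on each knockout array and 4, 5 and 10 on the wild-type arrays, heart had 0 to 2 and liver 0 or 1. At a level of 6 on all 3 wild-type arrays, muscle held 3 genes (Hoxd8, Hoxc9 and Hoxc10) and testis 2 (Hoxa4 and Hoxd8). Liver, brain and heart held none, while 29.4% (muscle) to 31.4% (testis) of all genes reached that level in a tissue (29.8% in liver, 30.4% in brain and 30.7% in heart).

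**Figure D1:**
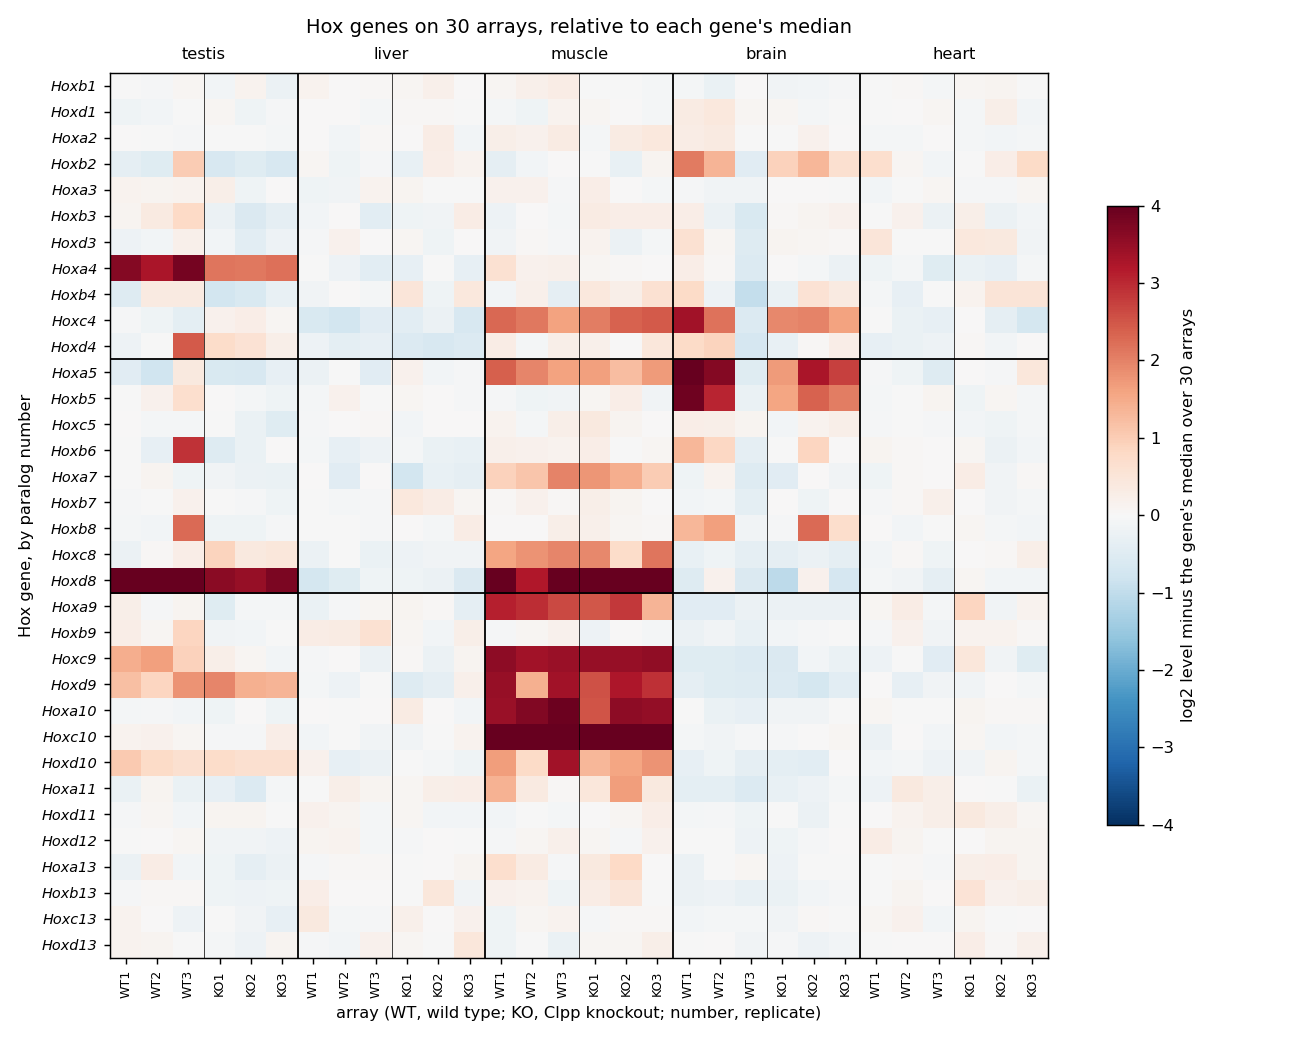
Log2 level of each Hox gene minus that gene's median over the 30 arrays (colour), with genes ordered by paralog number from top to bottom and arrays grouped by tissue and genotype along the horizontal axis. Hoxd8, Hoxa9, Hoxc9, Hoxd9, Hoxa10, Hoxc10 and Hoxd10 stand out on the muscle arrays, Hoxc4, Hoxa5 and Hoxb5 on 5 of the 6 brain arrays, and Hoxa4 and again Hoxd8 on the testis arrays.

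Promoters are shown for 4 genes on which the results turn: Hoxd8, Hoxd9 and Hoxd10, adjacent in the Hoxd cluster and low together on 1 muscle array, and Hoxa5, which had the highest level over the other tissues in brain. The sequences are the RefSeq promoter windows of GRCm38.p6, 300 bases from 250 before the transcription start to 50 bases from it, written 5′ to 3′ on the strand of the gene, with CpG dinucleotides in capitals. Hoxd8 lies at chr2:74704365-74704664 (+), Hoxd9 at chr2:74697513-74697812 (+), Hoxd10 at chr2:74691641-74691940 (+) and Hoxa5 at chr6:52204538-52204837 (-).
Hoxd8: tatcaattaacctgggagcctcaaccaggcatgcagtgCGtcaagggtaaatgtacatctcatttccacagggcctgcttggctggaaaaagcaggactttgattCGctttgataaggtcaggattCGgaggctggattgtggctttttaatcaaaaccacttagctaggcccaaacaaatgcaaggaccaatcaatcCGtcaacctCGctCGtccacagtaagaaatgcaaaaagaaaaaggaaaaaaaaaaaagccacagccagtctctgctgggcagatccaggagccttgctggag
Hoxd9: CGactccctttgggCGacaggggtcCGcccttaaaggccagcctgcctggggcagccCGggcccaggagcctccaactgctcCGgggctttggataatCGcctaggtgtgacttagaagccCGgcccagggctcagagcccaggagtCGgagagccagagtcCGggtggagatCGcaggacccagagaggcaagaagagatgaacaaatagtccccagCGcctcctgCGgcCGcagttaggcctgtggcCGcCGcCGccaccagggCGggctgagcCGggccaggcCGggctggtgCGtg
Hoxd10: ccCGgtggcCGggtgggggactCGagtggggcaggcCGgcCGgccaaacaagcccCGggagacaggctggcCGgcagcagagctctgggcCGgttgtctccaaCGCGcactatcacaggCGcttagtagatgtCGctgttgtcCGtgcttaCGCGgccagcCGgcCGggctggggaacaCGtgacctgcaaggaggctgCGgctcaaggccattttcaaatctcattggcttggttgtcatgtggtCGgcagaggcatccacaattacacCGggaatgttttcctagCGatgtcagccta
Hoxa5: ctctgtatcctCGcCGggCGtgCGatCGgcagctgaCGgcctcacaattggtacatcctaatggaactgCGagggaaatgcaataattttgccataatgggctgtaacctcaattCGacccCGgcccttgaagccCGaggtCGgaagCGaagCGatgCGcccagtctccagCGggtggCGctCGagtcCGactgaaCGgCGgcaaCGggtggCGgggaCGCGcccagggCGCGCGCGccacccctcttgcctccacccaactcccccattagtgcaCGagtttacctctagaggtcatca

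The window of Hoxd8 held 6 CpG dinucleotides and 46.7% G+C, with an observed-to-expected CpG ratio of 0.367. The windows of Hoxd9 and Hoxd10 held 20 and 22 CpGs at 68.3% and 62.7% G+C, with ratios of 0.573 and 0.754, and that of Hoxa5 held 29 at 61.7% and a ratio of 1.02. Of the 34 genes 21 had at least 1 window in the table, 23 windows in all. Their median G+C was 57.3% and their median CpG ratio 0.596, against 52.7% and 0.384 over all 32841 windows. The motif TGATTNAT, a site of Hox with Pbx, occurred on either strand in 2 of the 23 Hox windows (8.7%) and in 3.22% of all windows. TTTATNG, a form bound by posterior Hox proteins, occurred in 2 (8.7%) against 10.9%, and TATAAA, whose reverse complement can overlap it, in 4 (17.4%) against 13.6%. The 4 windows printed above held none of the 3 motifs.

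In muscle the genes that stood highest over the mean of the other tissues came from paralog groups 8, 9 and 10. In wild type the median difference was 1.91 in group 8, 2.79 in group 9 and 3.76 in group 10. For groups 11, 12 and 13 it was 0.29, 0.04 and 0.04, so the posterior class did not rise as a whole. In wild-type mice Hoxc10, which takes part in patterning the lumbar spine and hindlimb motor neurons, averaged 8.42 ± 0.11 (SD, n = 3) in muscle against 2.46 over the other 4 tissues, a log2 difference of 5.96 ± 0.08 (SE), and Hoxa10, Hoxd8 and Hoxc9 were higher by 3.76, 3.62 and 3.33. By the limma fit, 15 of the 34 Hox genes differed between wild-type muscle and the mean of the other 4 wild-type tissues at a Benjamini-Hochberg adjusted p below 0.05, 14 higher and 1 lower (Hoxa4, -0.44 ± 0.14). Over all genes 63.7% differed, 26.3% being higher and 37.4% lower. The rises comprised 2 of 11 anterior, 4 of 9 central and 8 of 14 posterior genes. By cluster they comprised 6 of 9 Hoxa, 1 of 10 Hoxb, 4 of 6 Hoxc and 3 of 9 Hoxd genes. Across the 34 genes the difference had a Spearman correlation of 0.289 with paralog number, given as a description, since genes of one cluster share neighbours and all values share the same arrays.

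Among the posterior genes, Hoxc10 read 8.49, 8.29 and 8.46 on the wild-type muscle arrays and 8.48, 8.62 and 8.44 on the knockout arrays. The 6 values lay close together, and no array of another tissue came near them. Hoxc9, which sets thoracic motor neuron identity, read 6.92, 6.69 and 6.79 in wild-type and 6.84, 6.83 and 6.90 in knockout muscle, again with little spread. Hoxa10, a partner of Hoxc10 in the lumbar region, read 5.96, 6.21 and 6.43 in wild-type and 5.01, 6.08 and 6.01 in knockout muscle. Hoxa9, a thoracic and limb gene, read 6.38, 6.21 and 5.90 against 5.73, 6.08 and 4.63. For both Hoxa genes the genotypes overlapped, and 1 knockout array lay clearly lowest, replicate 1 for Hoxa10 and replicate 3 for Hoxa9. The wild-type difference from the other tissues was 3.33 ± 0.15 for Hoxc9 (limma adjusted p = 4.99e-16), 3.76 ± 0.14 for Hoxa10 (1.35e-17), 2.97 ± 0.20 for Hoxa9 (2.10e-12) and 5.96 ± 0.08 for Hoxc10 (4.22e-27).

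The 3 neighbouring Hoxd genes varied more, and they varied together. Hoxd8 read 8.38, 6.50 and 8.71 on the wild-type muscle arrays and 7.54, 7.88 and 8.13 on the knockout arrays. Hoxd9 read 6.70, 4.63 and 6.56 against 5.76, 6.43 and 6.12. Hoxd10 read 4.28, 3.36 and 5.97 against 3.92, 4.18 and 4.40. Wild-type replicate 2 was the lowest of the 6 muscle arrays for each of the 3 genes, by more than 1 log2 unit for Hoxd8 and Hoxd9. A separate probe set of Hoxd8 read 8.09, 5.84 and 8.24 on the wild-type arrays and 7.33 to 7.77 on the knockout arrays, with the same array low. That array was the lowest of the 6 for 5 of 9 Hoxd, 3 of 6 Hoxc, 2 of 10 Hoxb and 0 of 9 Hoxa genes, 10 of 34 in all (29.4%), and for 14.6% of all genes. On the same array the slow-fibre genes were lowest (4.89) and 6 fibroblast markers highest (7.02 against 5.97 to 6.57), and the part of these differences in the Hoxd values was not tested. In the fit with all arrays the wild-type difference from the other tissues was 3.62 ± 0.28 for Hoxd8, 2.60 ± 0.27 for Hoxd9 and 1.87 ± 0.27 for Hoxd10 (limma adjusted p = 2.95e-11, 3.72e-09 and 1.05e-06).

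Of the central and anterior genes, Hoxc8, which acts in forelimb motor pools and the thoracic skeleton, read 4.30, 4.51 and 4.68 in wild-type and 4.62, 3.45 and 4.85 in knockout muscle. Hoxa7 read 4.02, 4.22 and 5.08 against 4.87, 4.57 and 4.12, and Hoxa5, a gene of the neck and upper thorax, read 5.60, 5.16 and 4.81 against 4.85, 4.44 and 4.90. In each of the 3 genes the genotypes overlapped. Hoxc4, the most anterior member of its cluster measured here, read 5.54, 5.33 and 4.85 against 5.30, 5.59 and 5.68. Hoxc8 was higher in wild-type muscle than in the other tissues by 1.91 ± 0.17 (limma adjusted p = 4.57e-10), and the rises below the 8 largest lay between 0.20 and 1.84. On all 3 wild-type muscle arrays at least 1 gene of each of the Hoxa, Hoxc and Hoxd clusters stood above 4. Of the Hoxb cluster only Hoxb4 came above 4, at 3.94, 4.23 and 3.68 in wild-type and 4.46, 4.27 and 4.67 in knockout muscle. A separate probe set of Hoxb4 stayed below 4, at 2.75 to 2.82 in wild-type and 2.84 to 3.12 in knockout muscle.

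In heart, the other striated muscle, these genes were lower. Wild-type heart was lower than wild-type muscle for 12 of 34 Hox genes and higher for 0 by limma (adjusted p below 0.05), where 35.9% of all genes differed, 16.0% being lower and 19.8% higher. At an unadjusted p below 0.05 there were 14 of 34, a share like that of all genes (42.1%). The added pair (Hoxb1 and Hoxa2) was lower in heart too, by -0.20 and -0.29. Hoxc10 read 2.25, 2.53 and 2.38 in wild-type heart, a log2 difference from muscle of -6.03 ± 0.10, and Hoxd8 read 3.22, 3.13 and 2.91, a difference of -4.78 ± 0.36 (limma adjusted p = 8.59e-25 and 4.77e-11). The wild-type groups of both genes were far apart. Hoxa10 and Hoxc9 were lower in heart by -3.69 ± 0.18 and -3.67 ± 0.19, Hoxd9 and Hoxa9 by -2.90 ± 0.34 and -2.80 ± 0.26, and Hoxa5 and Hoxc4 by -2.24 ± 0.69 and -2.20 ± 0.50. For 16 of the 34 genes the 3 wild-type heart arrays all lay below the 3 wild-type muscle arrays, as they did for 21.1% of all genes. Hoxb4 was the gene that reached 4 on most heart arrays, at 3.95, 3.72 and 4.03 in wild-type and 4.19, 4.55 and 4.57 in knockout mice. Its separate probe set read 2.95, 2.99 and 2.79 in wild-type and 2.67, 2.87 and 2.47 in knockout heart. The 2 probe sets thus differed in level and in direction between the genotypes.

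**Figure D2:**
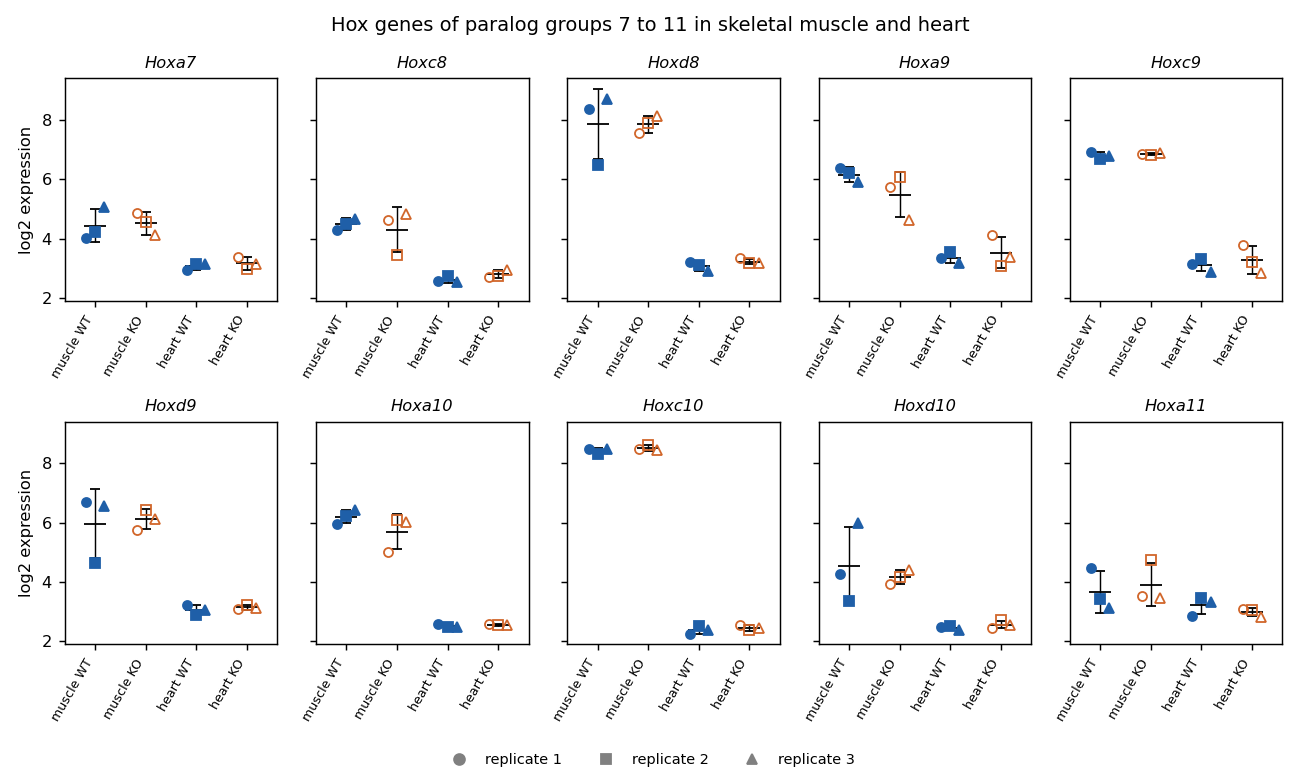
Log2 expression of 10 Hox genes of paralog groups 7 to 11 in muscle and heart, wild type (filled) and knockout (open), with a symbol per replicate and the group mean ± SD as bars. Every array of muscle lay above every array of heart for Hoxd8, Hoxa9, Hoxc9, Hoxd9, Hoxa10, Hoxc10 and Hoxd10, and wild-type replicate 2 (square) is low for Hoxd8, Hoxd9 and Hoxd10.

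Limb and position genes outside the clusters were set beside this. Of 11 genes that place or shape the limbs, 2 rose and 2 fell in wild-type muscle against the other tissues by limma, beside 26.3% and 37.4% of all genes. Tbx15, a T-box factor of limb and trunk muscle and fat, averaged 9.33 against 2.67, a difference of 6.66 ± 0.08, and Tbx4, the hindlimb T-box factor, averaged 3.39 against 2.70 (0.69 ± 0.14). Tbx5, the forelimb and heart T-box factor, fell by 0.75 ± 0.22 on the log2 scale and Emx2 fell by 0.43 ± 0.18. Of the 8 measured TALE partners of Hox proteins, Pknox2 was higher in muscle (1.18 ± 0.19) and Meis2 and Pbx3 were lower (-1.76 ± 0.22 and -1.14 ± 0.18), 3 of 8 where 63.7% of all genes were called.

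In brain the genes that stood above the mean of the other tissues were anterior and central. Hoxa5 averaged 5.77 ± 2.67 (SD, n = 3) in wild-type brain against 3.51 over the other 4 tissues, and Hoxb5 4.83 ± 2.20 against 2.65. By limma 20 of 34 Hox genes differed from the mean of the other 4 wild-type tissues, 5 higher and 15 lower, against 74.7% of all genes, 28.1% higher and 46.5% lower. The rises comprised 3 of 11 anterior, 2 of 9 central and 0 of 14 posterior genes, while 9 posterior genes were lower. Across the 34 genes the Spearman correlation of the difference with paralog number was -0.419, given as a description. The largest lower values were those of genes that stood high in muscle or testis, and so in the mean of the other tissues: Hoxd8 (-2.49), Hoxc9 (-1.62), Hoxc10 (-1.56), Hoxd9 (-1.41) and Hoxa9 (-1.14).

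On the wild-type brain arrays replicate 3 stood apart. Hoxa5 read 7.71, 6.87 and 2.73 on the wild-type arrays and 4.90, 6.48 and 5.92 on the knockout arrays. Hoxb5, like Hoxa5 a gene of the caudal hindbrain and cervical cord, read 6.50, 5.65 and 2.33 against 4.17, 4.95 and 4.64. Hoxc4, also of the caudal hindbrain and cord, read 6.58, 5.41 and 2.70 against 5.17, 5.21 and 4.83. In each of the 3 genes wild-type replicates 1 and 2 included the highest array of all 6, replicate 3 was the lowest, and the knockout arrays lay between. Hoxb2, needed for the facial motor neurons of the hindbrain, read 5.31, 4.57 and 2.78 against 4.16, 4.56 and 3.87, in the same order. Hoxb4 and Hoxd4, whose hindbrain domains end further back, read 4.82, 3.84 and 3.08 against 3.77, 4.61 and 4.42, and 4.02, 4.14 and 2.57 against 2.95, 3.29 and 3.50. Replicate 3 was again lowest for both. Hoxb6 read 4.52, 4.02 and 2.82 against 3.19, 4.04 and 3.22, and Hoxb8, which marks a lineage of microglia as well as the cord, read 3.69, 4.03 and 2.25 against 2.33, 4.63 and 3.09. No posterior gene reached 4 on any brain array.

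Wild-type replicate 3 was the lowest of the 6 brain arrays for 21 of 34 Hox genes (61.8%) and for 26.9% of all genes. By class it was lowest for 9 of 11 anterior, 7 of 9 central and 5 of 14 posterior genes, and by cluster for 9 of 10 Hoxb and 7 of 9 Hoxa genes. The regional markers of the same array differed as well. The mean of 12 forebrain markers was 4.41 on this array and 2.74 to 2.84 on the other 5 brain arrays, near the bottom of the scale. Neurod6, of cortical projection neurons, read 6.79 there and 2.57 to 2.83 on the others, and Bcl11b, of cortical and striatal neurons, read 8.74 against 4.06 to 4.69. The mean of 10 cerebellum and midbrain markers was 6.60 on this array and 7.92 to 8.27 on the others, and Gabra6, of cerebellar granule cells, read 9.50 against 10.8 to 11.5. The mean of 14 brainstem and spinal cord markers was 3.12 against 3.56 to 4.30, and Slc6a5, the glycine transporter of brainstem and cord neurons, read 3.61 against 7.50 to 7.91. The genes of these lists did not shift alike. In the forebrain list Emx1, Six3, Dlx2, Dlx5, Otx1 and Nkx2-1 averaged 2.57 to 3.18 in wild-type and 2.46 to 3.11 in knockout brain. In the brainstem and cord list Slc5a7, Isl1, Phox2a, Mnx1 and Gata3 averaged 2.41 to 2.97 and 2.39 to 3.02. The mean of the 6 neuronal markers was 10.1 to 10.2 on all 6 arrays. In bulk tissue fewer cells of a type and less RNA per cell cannot be told apart, and the part of tissue region in the Hox values was not tested.

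**Figure D3:**
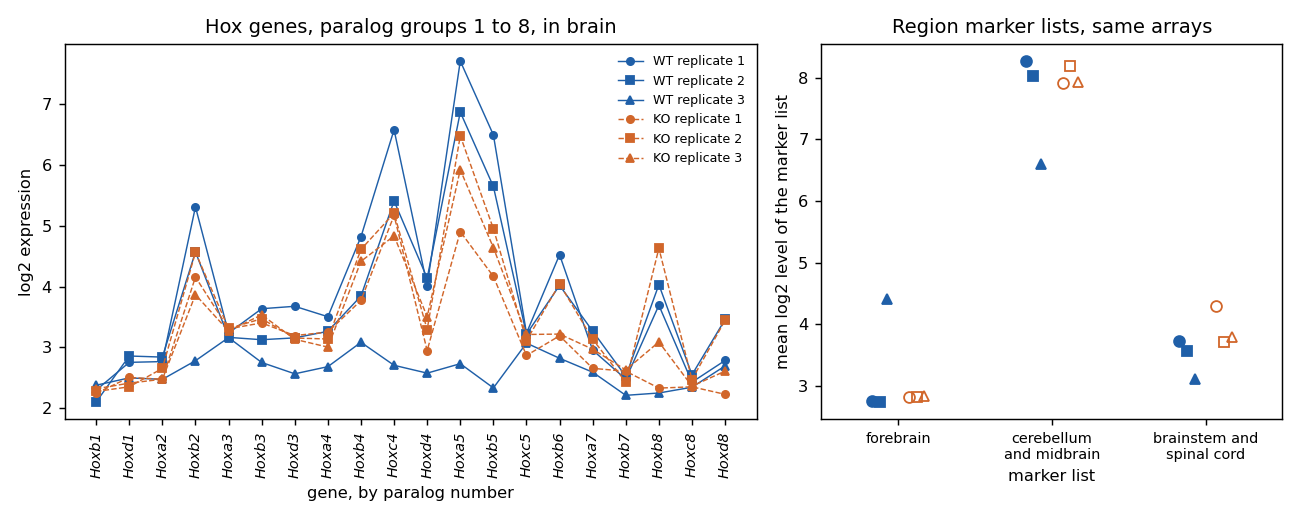
Left, log2 expression of the Hox genes of paralog groups 1 to 8 on the 6 brain arrays, a line per array (wild type solid, knockout dashed). Right, the mean log2 level of 3 lists of regional markers on the same arrays. Wild-type replicate 3 has the lowest line for most Hox genes, the highest forebrain mean (4.41) and the lowest means of the other 2 lists (6.60 and 3.12).

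With all arrays the limma differences of wild-type brain from the other tissues were 2.26 ± 0.55 for Hoxa5, 2.18 ± 0.43 for Hoxb5, 1.41 ± 0.39 for Hoxc4, 0.98 ± 0.33 for Hoxb2 and 0.31 ± 0.08 for Hoxd1 (adjusted p = 0.000649, 6.59e-05, 0.00243, 0.00945 and 0.00191). The errors and p-values pool each gene's spread over all groups, and so understate the spread of the wild-type brain arrays. Without replicate 3 the differences of these genes were 3.78 ± 0.29, 3.42 ± 0.18, 2.51 ± 0.21, 1.70 ± 0.28 and 0.41 ± 0.09. Hoxb8 (1.31 ± 0.41) and Hoxa2 (0.29 ± 0.11) joined them, so that 7 genes were higher. The share of all genes that were higher in that fit is not given. Hoxd1 and Hoxa2 read at most 2.86 and 2.91 on any array of the series, below the array medians. The probe set used for Hoxb3 read 2.75 to 3.64 on the brain arrays. A separate probe set of Hoxb3 read 5.43, 4.49 and 2.38 on the wild-type and 3.98, 4.06 and 3.60 on the knockout brain arrays, the order seen for Hoxb2 and Hoxb5. Among the TALE partners 4 of 8 were higher and 2 lower in wild-type brain, a share like that of all genes (74.7%), with Meis2 by 2.56 ± 0.22, Pbx3 by 1.35 ± 0.18 and Meis1 by 1.15 ± 0.25 and Pbx2 by 0.73 ± 0.15 the higher ones.

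In testis 2 genes of different clusters stood far above the mean of the other tissues. Hoxd8 averaged 8.10 ± 0.14 (SD, n = 3) in wild-type testis against 4.19 over the other 4 tissues. Hoxa4, whose transcripts in the adult testis are found in germ cells from meiosis on, averaged 6.82 ± 0.29 against 3.17. By limma 12 of 34 Hox genes differed, 7 higher and 5 lower, against 72.8% of all genes, 32.1% higher and 40.7% lower. The Spearman correlation of the difference with paralog number was -0.004. Hoxd8 was higher by 3.91 ± 0.28 and Hoxa4 by 3.64 ± 0.14 (adjusted p = 2.12e-12 and 1.46e-18), and the 3 wild-type testis arrays of Hoxa4 lay above all arrays of the other wild-type tissues. Hoxd8 also stood high in wild-type muscle (7.86 ± 1.19), where its mean lay only 0.24 below that of testis. The other rises were Hoxd9 (0.79 ± 0.27), Hoxd4 (0.76 ± 0.33), Hoxc9 (0.67 ± 0.15), Hoxb3 (0.54 ± 0.15) and Hoxb9 (0.34 ± 0.11). The lower values, again of genes high elsewhere, were those of Hoxa5 (-1.30), Hoxc10 (-1.28), Hoxa10 (-0.95), Hoxc4 (-0.92) and Hoxa9 (-0.55).

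Replicate 3 of wild-type testis, which held epididymal transcripts, was the highest of the 6 testis arrays for 9 of 10 Hoxb genes, 3 of 9 Hoxd, 2 of 9 Hoxa and 0 of 6 Hoxc genes, 14 of 34 in all (41.2%), and for 10.3% of all genes. Hoxb6 read 6.09 there and 3.19 and 2.86 on the other wild-type arrays. Hoxd4 read 5.69 against 3.04 and 3.21, and Hoxb8 read 4.63 against 2.29 and 2.27. None of these genes came above 4 on another testis array. The part of epididymal tissue in these values was not tested. Without this array 7 of 34 genes differed from the other tissues, and the difference of Hoxd4 turned from 0.76 to -0.09. The share of all genes called in that fit is not given, so the lower count cannot be called particular to Hox genes.

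Of 15 measured neighbours of the clusters, among them transcripts that do not code for Hox proteins, 5 were higher and 5 lower in wild-type testis by limma, beside 32.1% and 40.7% of all genes. The transcript Hoxb5os averaged 8.72 against 2.90 in the other tissues (5.81 ± 0.16). Hoxd3os1, from the Hoxd cluster, averaged 6.36 against 2.54 (3.82 ± 0.09) and Ttll6, a tubulin-modifying enzyme beside Hoxb, 6.46 against 3.15 (3.31 ± 0.10). Snx10, a sorting nexin near Hoxa, was lower (-2.55 ± 0.16).

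Liver and heart were low for nearly all genes. Wild-type liver differed in 13 of 34 Hox genes by limma, 1 higher and 12 lower, against 66.3% of all genes (25.5% higher and 40.8% lower). The gene that was higher, Hoxb9, averaged 3.05 against 2.69 (0.36 ± 0.11). Wild-type heart differed in 11 of 34, 0 higher and 11 lower, against 61.1% of all genes (27.5% higher and 33.6% lower). The largest lower values in both tissues were those of Hoxd8 (-2.68 in liver and -2.36 in heart) and Hoxc10 (-1.54 and -1.58), followed in heart by Hoxc9 (-1.26), Hoxa5 (-1.26) and Hoxa4 (-1.14) and in liver by Hoxc4 (-1.41), Hoxa5 (-1.24) and Hoxa4 (-1.12). These genes averaged 2.39 to 3.13 in heart and 2.42 to 3.003 in liver, and the mean of the other tissues includes muscle, testis and brain.

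Between the genotypes, Hox genes differed in testis, where Hoxa4 and Hoxd8, the genes that stood highest over the mean of the other tissues, were lower in the knockout. By limma 6 of 34 Hox genes differed between knockout and wild type in testis (17.6%), 1 higher and 5 lower. Over all genes 56.2% differed, 32.8% being higher and 23.4% lower, so that the share among Hox genes was below that background. The median difference over the 34 genes was -0.19, against 0.02 over all genes.

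Hoxa4 read 5.38, 5.33 and 5.42 on the knockout and 6.91, 6.50 and 7.05 on the wild-type testis arrays. Every knockout array lay below every wild-type array, and the 3 knockout values were almost equal. The log2 difference of Hoxa4 was -1.44 ± 0.17 (SE, 3 arrays per genotype, limma adjusted p = 6.16e-08). Hoxc9 read 3.57, 3.42 and 3.22 against 4.79, 4.97 and 4.25, without overlap, and fell by 1.27 ± 0.19 (adjusted p = 2.00e-06). Hoxd8 read 6.88, 6.78 and 7.05 against 7.93, 8.19 and 8.17, also without overlap, and fell by 1.20 ± 0.36 (adjusted p = 0.00570). The separate probe set of Hoxd8 read 6.07, 5.69 and 6.06 against 6.48, 6.17 and 6.89. Hoxd9, next to Hoxd8 in the cluster, read 5.18, 4.64 and 4.56 against 4.43, 4.08 and 5.02, with overlap, and its difference of 0.28 ± 0.34 was not called (adjusted p = 0.518).

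The other called genes stood lower on the scale. Hoxb3, a hindbrain and neck gene, read 3.14, 2.78 and 3.003 against 3.47, 3.72 and 4.17 and fell by 0.81 ± 0.19 (limma adjusted p = 0.000630). Hoxb9, a thoracic gene, averaged 2.55 ± 0.06 against 3.04 ± 0.41 (SD, n = 3) and fell by 0.49 ± 0.14 (adjusted p = 0.00411). Hoxc8 was the gene that rose, from 2.47, 2.76 and 2.99 in wild-type to 3.61, 3.12 and 3.17 in knockout testis, by 0.56 ± 0.22 (adjusted p = 0.0312). In each of the 6 genes the genotypes did not overlap. Over the 34 genes the knockout arrays all lay below the wild-type arrays for 8 and all above for 2, against 28.2% and 35.3% of all genes. Hoxb3, Hoxb9 and Hoxc8 read 4.17 or lower on every testis array, near the array medians.

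**Figure D4:**
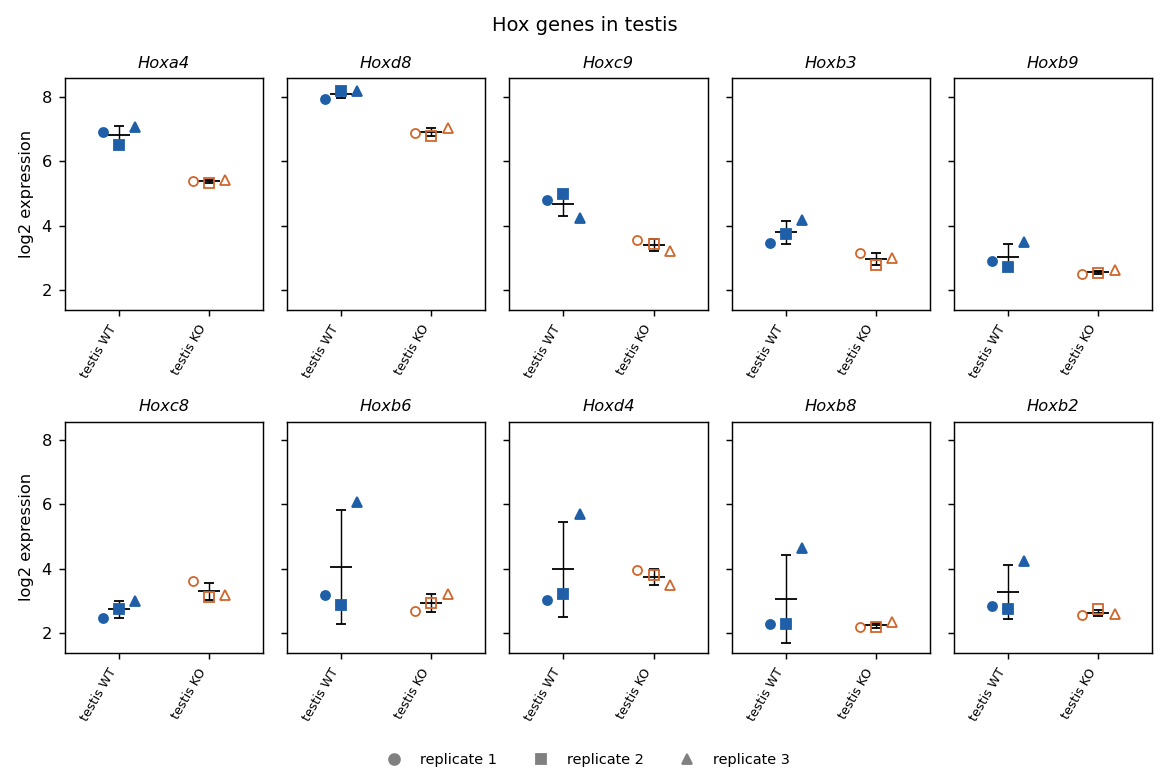
Log2 expression of Hox genes in testis, wild type (filled) and knockout (open), with a symbol per replicate and the group mean ± SD as bars. Hoxa4, Hoxc9 and Hoxd8 lie lower on all 3 knockout arrays, and wild-type replicate 3 (triangle) stands above the rest for Hoxb6, Hoxd4 and Hoxb8.

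Marker levels of several testis cell types moved with the genotype. The mean log2 level of 10 markers of round and elongating spermatids was 6.57 to 7.71 on the knockout arrays and 11.3 to 11.7 on the wild-type arrays, and 10 of 10 fell. The mean of 9 Sertoli cell markers was 6.93 to 7.14 against 5.38 to 5.55, of 6 Leydig cell markers 9.83 to 10.1 against 8.28 to 8.48, and of 7 spermatogonial markers 7.02 to 7.25 against 5.50 to 5.60. Sertoli markers rose in 9 of 9, Leydig markers in 6 of 6 and spermatogonial markers in 6 of 7. The mean of 5 spermatocyte markers was 8.07 to 8.32 against 7.89 to 8.10, with 4 called higher and 1 lower. The mean of 5 peritubular and smooth muscle markers was 6.51 on each knockout array against 5.36 to 6.11, and that of 6 fibroblast markers 4.98 to 5.24 against 4.28 to 4.60, with 3 higher and 0 lower in each list. These counts stand beside 32.8% of all genes called higher and 23.4% called lower in testis. The part of these shifts in the Hox changes was not tested. The 5 epididymal markers averaged 3.12 and 3.01 on wild-type replicates 1 and 2, 10.3 on replicate 3 and 2.60 to 2.73 on the knockout arrays. Without replicate 3, 5 Hox genes were called by limma: Hoxc9 (-1.48 ± 0.19, adjusted p = 3.13e-07), Hoxa4 (-1.33 ± 0.19, 1.27e-06), Hoxb3 (-0.62 ± 0.20, 0.00924), Hoxd8 (-1.16 ± 0.41, 0.0180) and Hoxc8 (0.69 ± 0.24, 0.0188). The call of Hoxb9 was lost (-0.26, 0.0708). The share of all genes called without this array is not given. With all arrays, the call of Hoxb9 was also lost when testis was fitted alone (-0.49), that of Hoxb3 with its probe set of largest variance (-0.68) and that of Hoxc8 under quantile normalization (0.54).

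Genes around the clusters and of the Hox pathway were compared in the same way in testis. Hoxd3os1 read 3.93, 3.62 and 3.95 against 6.44, 6.45 and 6.17 and fell by 2.52 ± 0.11, without overlap. Of the 15 cluster neighbours 6 rose and 3 fell in all, among them Skap1, an adaptor of T cell signalling beside Hoxb (-1.80 ± 0.16), Mtx2, a mitochondrial import protein beside Hoxd (1.19 ± 0.09), and Lnpk, a protein of endoplasmic reticulum junctions beside Hoxd (1.12 ± 0.24). Of the 8 TALE partners 3 rose and 1 fell: Pknox2 (-2.88 ± 0.23), Pbx2 (1.36 ± 0.19), Pbx3 (1.25 ± 0.23) and Pbx4 (0.34 ± 0.14). Of 15 retinoid genes 7 rose and 0 fell, including the binding protein Crabp1 (2.46 ± 0.17), the retinoic acid hydroxylase Cyp26b1 (2.42 ± 0.25) and the retinoid-oxidising enzymes Aldh1a1 (1.64 ± 0.23) and Rdh10 (1.61 ± 0.17). Of 20 Polycomb and Trithorax genes 12 rose and 2 fell, with Rnf2 (1.77 ± 0.13), the demethylase gene Kdm6a (1.65 ± 0.15) and Phc3 (1.35 ± 0.14) among the rises and Phc1 (-1.27 ± 0.22) the larger fall. Of the 11 limb genes 2 rose and 2 fell. These shares stand beside 56.2% of all genes called in testis. Of 5 measured upstream regulators (Cdx1, Cdx2, Cdx4, Gdf11 and Egr2) 0 were called by limma between the genotypes in any of the 5 tissues. At an unadjusted p below 0.05 none passed, beside 59.1% of all genes in testis and 7.91% to 13.8% in the other tissues.

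Outside testis no Hox gene was called between knockout and wild type. By limma the counts were 0 of 34 in liver, muscle, brain and heart, where 2.42%, 1.54%, 0.415% and 2.18% of all genes were called. At an unadjusted p below 0.05 they were 2, 4, 1 and 1 of 34, beside 13.1%, 12.8%, 7.91% and 13.8% of all genes. The smallest adjusted p-values, of genes named after their values were seen, belonged to Hoxb7 in liver (0.31 ± 0.11, adjusted p = 0.139), Hoxa10 in muscle (-0.51 ± 0.18, 0.189), Hoxd1 in brain (-0.28 ± 0.11, 0.439) and Hoxb13 in heart (0.29 ± 0.14, 0.354). In muscle the next was Hoxa9 (-0.68 ± 0.26, 0.222). Over the 34 genes the differences lay between -0.35 and 0.31 in liver, -0.68 and 0.52 in muscle, -0.33 and 0.35 in brain and -0.23 and 0.53 in heart. The means of the cardiomyocyte, adipocyte and smooth muscle marker lists were highest on heart knockout replicates 2 and 3. The smooth muscle mean was 8.37 and 8.36 there, against 7.07 to 7.35 on the other heart arrays. In the cardiomyocyte list Myl7 and Nppa differed between genotypes by 4.94 and 1.34, and Tnni3, Tnnt2 and Actc1 by -0.13, -0.11 and 0.10. In the adipocyte list Adipoq and Ucp1 differed by 3.67 and 3.07, and Fabp4 and Lep by -0.11 and 0.15. Of these genes only Ucp1 was called (limma adjusted p = 0.0100). The part of these markers in the heart values was not tested. Without replicate 2 or without replicate 3 of the knockout, 0 of 34 Hox genes were called in heart.

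In muscle the slow-fibre genes differed between the genotypes, with 6 of 6 higher in the knockout and a median difference of 4.28, and Tbx15 fell by 0.43 ± 0.10 (limma adjusted p = 0.0244). Over all genes 1.54% were called in muscle. The slow-fibre list was added after the values had been seen, so its count is a description and not a test. The part of fibre type in the muscle Hox values was not tested. Hoxd8, Hoxd9 and Hoxd10, low on wild-type replicate 2, had differences of -0.01, 0.14 and -0.37 with all arrays. Without that array these were -0.69, -0.52 and -0.96 ± 0.27, and none was called (limma adjusted p = 0.206, 0.306 and 0.0779).

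In brain the comparison turned on wild-type replicate 3. With all arrays the differences of Hoxa5 and Hoxb5 were -0.0016 and -0.24, with wild-type arrays on both sides of the knockout arrays. Without replicate 3, Hoxb5 fell by 1.48 ± 0.21 (limma adjusted p = 0.000324), where 56 genes in all (0.328%) were called and 28 (0.164%) were lower. Hoxa5 then differed by -1.52 ± 0.35 and Hoxc4 by -0.92 ± 0.25, neither called (adjusted p = 0.0602 and 0.179). The lower of the 2 remaining wild-type arrays of Hoxb5 (5.65) stood above the highest knockout array (4.95). Under the same omission 8 of 11 anterior, 8 of 9 central and 5 of 14 posterior genes had a difference below 0, with medians of -0.26, -0.36 and 0.05 against 0.01 over all genes. The array left out was the lowest of the 6 for 9 of 11 anterior, 7 of 9 central and 5 of 14 posterior genes. Leaving it out raised the wild-type means of those genes, so these sign counts do not test a class pattern. With testis wild-type replicate 3 and muscle wild-type replicate 1 also left out, 3 of 34 genes were called in brain against 0.380% of all genes, Hoxb5 (0.000180), Hoxd4 (-0.83 ± 0.15, 0.00984) and Hoxa5 (0.0197). These calls rest on 2 wild-type arrays, and the array left out was chosen after its values had been seen. Brain knockout replicate 1 had the highest mean of brainstem and cord markers (4.30), the cerebellum and midbrain mean was 7.92 to 8.19 on the knockout arrays against 8.27 and 8.03 on wild-type replicates 1 and 2, and the forebrain mean was 2.82 to 2.84 against 2.75 and 2.74. The part of these differences in the Hox values was not tested.

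The difference between tissues was tested directly. By the moderated F test in limma the knockout effect differed between the 5 tissues for 4 of 34 Hox genes, against 52.3% of all genes: Hoxa4 (adjusted p = 3.26e-05), Hoxc9 (0.000126), Hoxb3 (0.00318) and Hoxb9 (0.0243). For Hoxa4 the difference was -1.44 in testis, -0.28 in muscle, -0.02 in brain and between -0.0023 and 0.0012 in liver and heart. Hoxc9, which read 6.69 to 6.92 on the muscle arrays, differed there by 0.06 ± 0.19 (not called), while it fell by 1.27 in testis. Hoxd8, high in both tissues, differed by -0.01 ± 0.36 in muscle and -1.20 ± 0.36 in testis, and its F test did not pass the threshold (adjusted p = 0.123).

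**Figure D5:**
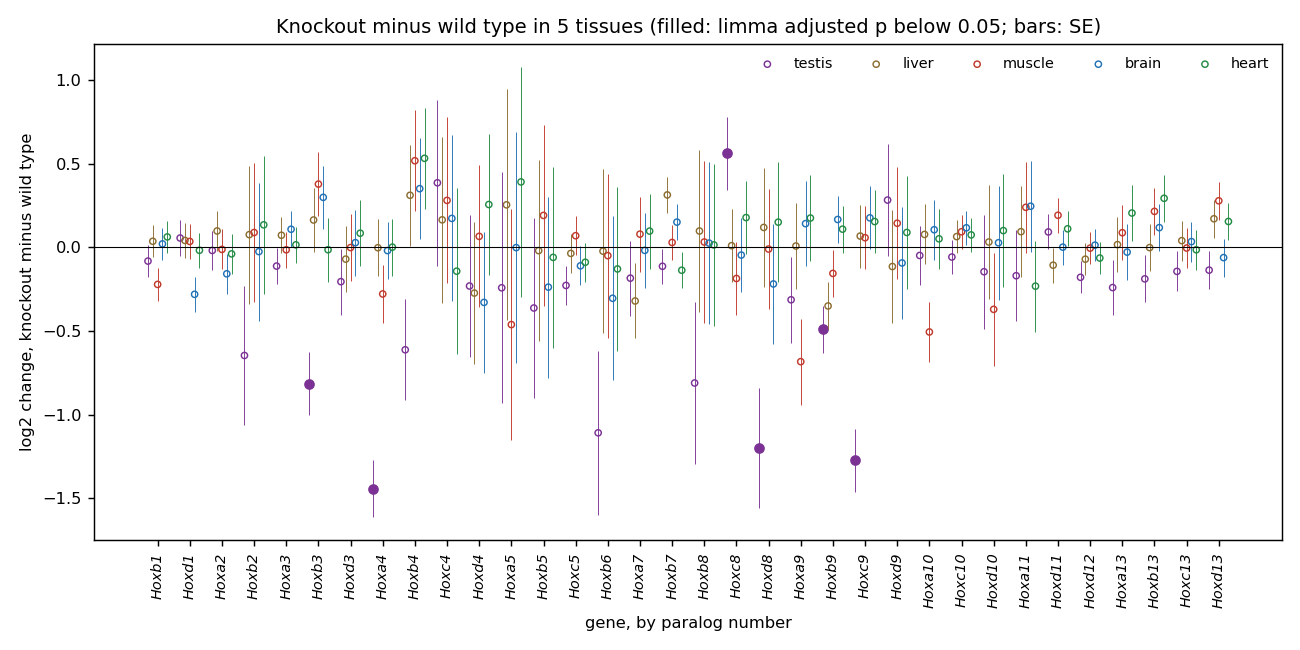
Log2 change, knockout minus wild type, of each Hox gene in each of 5 tissues (colours) with SE bars, genes ordered by paralog number. Filled points are called by limma at an adjusted p below 0.05, and all 6 of them are testis points, from -1.44 for Hoxa4 to 0.56 for Hoxc8.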

How the data were processed

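RNA was extracted from 5 tissues and biotinylated cRNA was made with a 3′ in vitro transcription kit, per the labels' protocols. The values deposited by the authors are log2 expression values per probe set, made with RMA in R 2.14.0 per the submitters' processing notes. Whether all 30 arrays were run through RMA together is not given in the sources used here. RMA forces the arrays to one distribution and compresses low signals, so that levels near the array medians give small differences.

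Of 45141 probe sets 28898 had exactly 1 gene symbol and 551 several in the platform annotation. A gene with several single-symbol probe sets was represented by the brightest on average, which gave 17097 genes. For 6 of the 34 Hox genes this was a choice among several probe sets, 42 in all. The deposited values were used without further normalization. The whole table was fitted by limma 3.58.1 (R 4.3.3) as 10 group means, leaving 20 residual degrees of freedom, and two-sided tests were adjusted by Benjamini-Hochberg over all genes within each contrast, with calls at an adjusted p below 0.05. Errors of differences are standard errors of this fit, which pools each gene's spread over the groups and so understates the error of more variable groups such as wild-type brain. The number of arrays, 3 per group, limits the precision. The script was tested on simulated data.

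The Hox genes are all symbols of the form Hox with a cluster letter and a number. All called Hox genes up to 10 were named in each genotype contrast, and the 8 largest rises and 5 largest falls in each tissue contrast. Up to 4 called members were named of each list of TALE partners, upstream regulators, retinoid genes, Polycomb and Trithorax genes, limb genes and cluster neighbours. Hox genes at a log2 level of 4 or above in muscle or brain were also given by array. The members and lists were chosen with earlier results of these data known, and the slow-fibre list was added after the values had been seen. Alternatives were a fit of each tissue alone, replicate and animal blocks, other priors, other normalizations, other probe set rules, a filter on dim genes and each array left out. Same-numbered arrays of the 2 genotypes did not deviate together in any tissue (correlations between -0.13 and 0.24), so the replicate numbers were not taken as pairs.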

Additional observations from a re-analysis of the deposited data

Results flagged for a closer look

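For 4 Hox genes the knockout effect differed between the 5 tissues by the moderated F test in limma. Hoxa4, high in testis alone among the wild-type tissues, had an adjusted p of 3.26e-05, with a difference of -1.44 ± 0.17 in testis. Hoxc9, measured in both testis and muscle, had 0.000126, with -1.27 ± 0.19 in testis and 0.06 ± 0.19 in muscle. Hoxb3 had 0.00318 and Hoxb9 0.0243, with testis differences of -0.81 ± 0.19 and -0.49 ± 0.14 at levels near the array medians. Spermatid, Sertoli, Leydig and spermatogonial marker levels differed between the genotypes in testis as given above, and their part in these differences was not tested.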

How the results depend on the processing

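The counts in this section are given without the share of all genes called in each fit. In testis the count of Hox genes called between the genotypes was 6 and ranged from 5 to 8 when 1 array was left out. With the replicate number as a block it was 7 (Hoxb6 added), and the block called 0 in each of the other 4 tissues and kept 4 in the F test. With each array left out in turn the counts ranged from 0 to 1 in liver (1 without knockout replicate 3, Hoxb7), 0 to 0 in muscle, 0 to 1 in brain and 0 to 0 in heart. They ranged from 7 to 13 for wild-type testis against the other tissues, 10 to 14 for liver, 12 to 17 for muscle, 18 to 23 for brain, 6 to 12 for heart (6 without wild-type replicate 1 or 3), 11 to 13 for heart against muscle and 4 to 8 for the F test (8 without brain wild-type replicate 3). With only genes above the median of means tested, 1 Hox gene (Hoxd8) was left to test, and each of the 6 wild-type contrasts and the testis comparison called 1, the F test 0. With testis wild-type replicate 3, muscle wild-type replicate 1 and brain wild-type replicate 3 left out together, a choice made after seeing the data, brain called 3 and the F test 8. For single genes, Hoxd4 in wild-type testis against the other tissues lay between -0.090 (without testis wild-type replicate 3) and 1.23 with 1 array left out and turned to -0.20 without the 3 arrays. Of the other values of named genes 3223 kept their direction and side of the threshold and 176 kept the direction but lost the call. The call of Hoxc8 in knockout testis was lost under quantile normalization and without knockout replicate 1 or wild-type replicate 1 or 2, that of Hoxb3 with the probe set of largest variance, and that of Hoxb9 with each tissue fitted alone (Hoxc4 was then called) and without wild-type replicate 3. The cause was not tested. Signal near the bottom of the scale limits most Hox genes, since 23 of 34 reached a log2 level of 4 on all 3 arrays of no wild-type tissue.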
